A study of Mus musculus with 12 samples.

Results

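Fructose and polyol metabolism was followed through 5 genes. Slc2a5 and Slc2a9 encode membrane transporters, and Khk, Tkfc and Sord encode enzymes that make or use fructose. The genes were taken by name from a table of read counts for 57490 genes, with earlier results of these data known. All 5 were present, and all 5 were among the 17431 genes with enough counts to be tested.

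The study sequenced polyadenylated kidney RNA of male mice aged 13 weeks to ask how diabetes alters kidney transcripts and whether a herbal decoction shifts them. There were 12 mice, 4 in each of 3 groups. Ctrl mice were BKS heterozygotes (db/+, also written db/m), which carry a mutated copy of the leptin receptor gene Lepr, although their genotype label also reads wild-type. Model mice were db/db, homozygous for that allele in the strain BKS.Cg-Dock7m +/+ Leprdb/JNju. YHY mice were db/db and received Yiqi Huoxue Yangyin Decoction (YHY), a water extract of herbs labelled 6.24 g/mL, by daily gavage for 4 weeks. Ctrl and Model mice received purified water by the same route. The db/db mice had been selected for high and the heterozygotes for low random blood glucose. The db allele alters Lepr splicing, so a count over the whole gene does not check the genotype: in counts-per-million (CPM), Lepr ranged from 2.79 to 16.6 over the 12 mice. The sample labels name whole kidney tissue and the series text names renal cortex. Slc14a2, a urea transporter of the inner medulla, was detected in every library, at 12.8 to 171 CPM.

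Fructose enters proximal tubule cells from the filtrate and is phosphorylated there by ketohexokinase. Triokinase phosphorylates glyceraldehyde, which is released later in the same pathway. Fructose is also made inside the cell by the polyol pathway, in which aldose reductase reduces glucose to sorbitol and sorbitol dehydrogenase oxidises sorbitol to fructose. Rapid fructose phosphorylation consumes ATP and feeds purine breakdown to urate, which links the pathway to urate transport. In the renal medulla, sorbitol also serves as an organic osmolyte.

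Libraries held from 24415658 to 33276634 counts. Transcripts of the mitochondrial genome took 18.4% to 22.7% of the counts in Ctrl, 41.2% to 58.9% in Model and 53.8% to 64.6% in YHY mice. Because so large a share differed between groups, the scaling of a library affects every level in CPM. CPM values were therefore scaled by the trimmed mean of M-values (TMM). Under TMM the median log2 fold change over all tested genes was 0.04 for Model against Ctrl and 0.10 for YHY against Ctrl. When scaled by library size alone, these medians were −0.39 and −0.33. The split of called genes moved with them. For Model against Ctrl it went from 3412 higher and 3219 lower to 1547 higher and 5667 lower, and for YHY against Ctrl from 4547 higher and 4215 lower to 2365 higher and 5977 lower. A gene is termed called where its adjusted P was under 0.05 in edgeR's quasi-likelihood test with Benjamini-Hochberg adjustment over all tested genes.

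Levels of different genes were compared per length, as CPM divided by the deposited gene length in kilobases (FPKM). In Ctrl mice Sord had the highest FPKM of the 5 genes, at 445 ± 73.6 (SD, n = 4), followed by Khk at 344 ± 67.1. Their FPKM ranges overlapped, from 359 to 512 for Sord and from 256 to 416 for Khk. Tkfc followed at 64.3 ± 12.0 FPKM, Slc2a5 at 9.46 ± 1.25 and Slc2a9 at 1.46 ± 0.420, with no overlap between these neighbours. The upper positions differed in the diabetic groups, where Khk had a mean of 252 ± 35.0 FPKM and Sord of 236 ± 55.9 in Model, and Khk had 185 ± 68.3 and Sord 133 ± 62.3 in YHY mice.

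**Figure D1:**
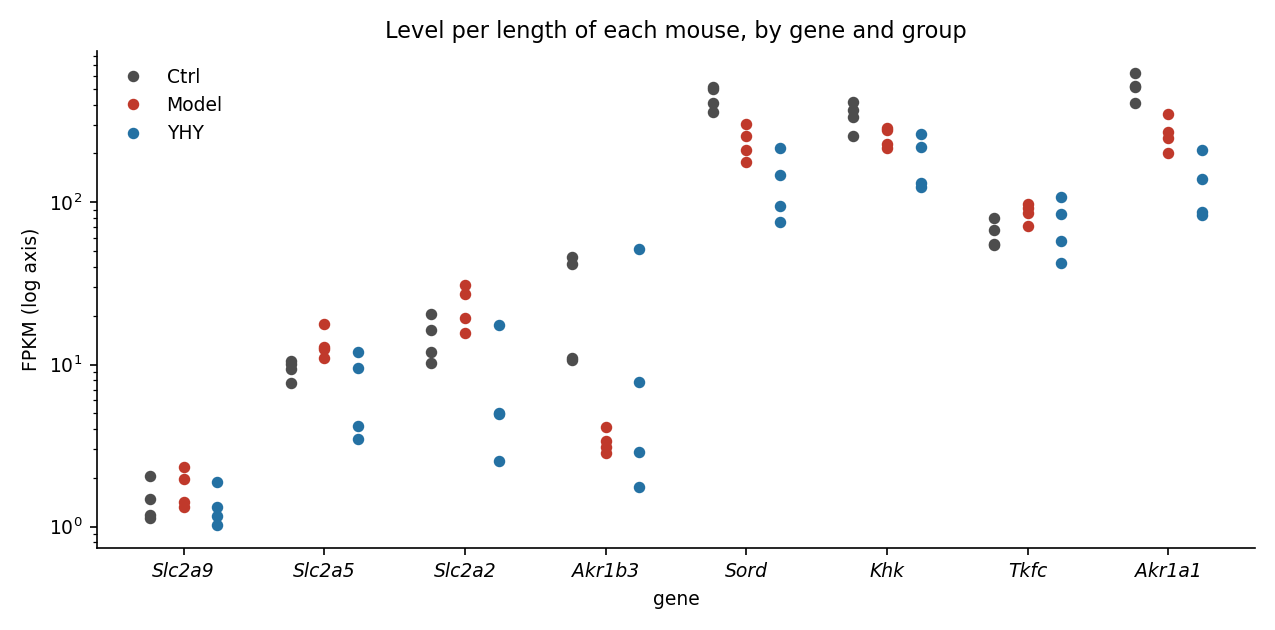
Level per length (FPKM, log axis) of each mouse for the 5 genes and 3 genes of neighbouring steps (Slc2a2, Akr1b3, Akr1a1), coloured by group, 4 points per group. Slc2a9 lies lowest of the 5 genes, and Sord and Khk lie close together in all 3 groups.

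Slc2a5 (ENSMUSG00000028976) encodes the fructose transporter of the apical membrane of intestinal and proximal tubule cells. The deposited table places it on chromosome 4 from 150203740 to 150228626, plus strand. Its TMM-scaled level was 26.3, 34.5, 35.95 and 32.0 CPM in Ctrl mice 1 to 4. Model mice 1 to 4 had 37.1, 43.3, 42.3 and 60.8 CPM of Slc2a5. YHY mice 1 to 4 had 14.1, 40.9, 11.8 and 32.3 CPM. On this TMM scale every Model mouse lay above every Ctrl mouse, while the YHY mice divided into a low pair, YHY 1 and YHY 3, and a pair at the level of the other groups. The fitted difference of Model against Ctrl was 0.51 on the log2 scale, with a 95% interval from −0.13 to 1.16 (edgeR, adjusted P = 0.2). Over the alternatives this difference ran from 0.0865 to 0.617, with an adjusted P of up to 0.815. YHY against Model gave −0.90, from −1.55 to −0.24 (edgeR, adjusted P = 0.0668), and YHY against Ctrl gave −0.38, from −1.03 to 0.27 (edgeR, adjusted P = 0.318). Slc2a5 was thus called in none of the 3 comparisons, although DESeq2 gave an adjusted P of 0.031 for YHY against Model, where the values over all alternatives ran from 0.00452 to 0.33. With YHY 1 and YHY 3 left out, a choice made after seeing the data, the log2 difference of YHY against Model was −0.33, that of YHY against Ctrl turned to 0.17, and Slc2a5 was called for Model against Ctrl (0.51, edgeR, adjusted P = 0.025). Without YHY 2 alone, Slc2a5 was called lower in YHY against Model (−1.25, edgeR, adjusted P = 0.0166) and in YHY against Ctrl (−0.73, edgeR, adjusted P = 0.0469), and without YHY 4 alone in YHY against Model (−1.06, edgeR, adjusted P = 0.0421).

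Slc2a9 (ENSMUSG00000005107) encodes a transporter of urate and, to a lesser degree, hexoses. It is listed on chromosome 5 from 38506616 to 38660486, minus strand. Ctrl mice 1 to 4 had 5.74, 10.4, 6 and 7.54 CPM of Slc2a9. The level was 11.9, 6.76, 10.0 and 7.27 CPM in Model mice 1 to 4, and 5.19, 6.74, 5.92 and 9.61 CPM in YHY mice 1 to 4. The 3 groups overlapped throughout, and the log2 differences were 0.28 for Model against Ctrl, −0.39 for YHY against Model and −0.11 for YHY against Ctrl (edgeR, adjusted P = 0.418, 0.349 and 0.75). The 95% interval of YHY against Ctrl ran from −0.66 to 0.44, and the direction of the difference changed without Ctrl 2 (0.09), without YHY 1 (0.00052) and with upper-quartile scaling (0.00536). Gene counts do not separate the isoforms of Slc2a9 or of Khk.

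**Figure D2:**
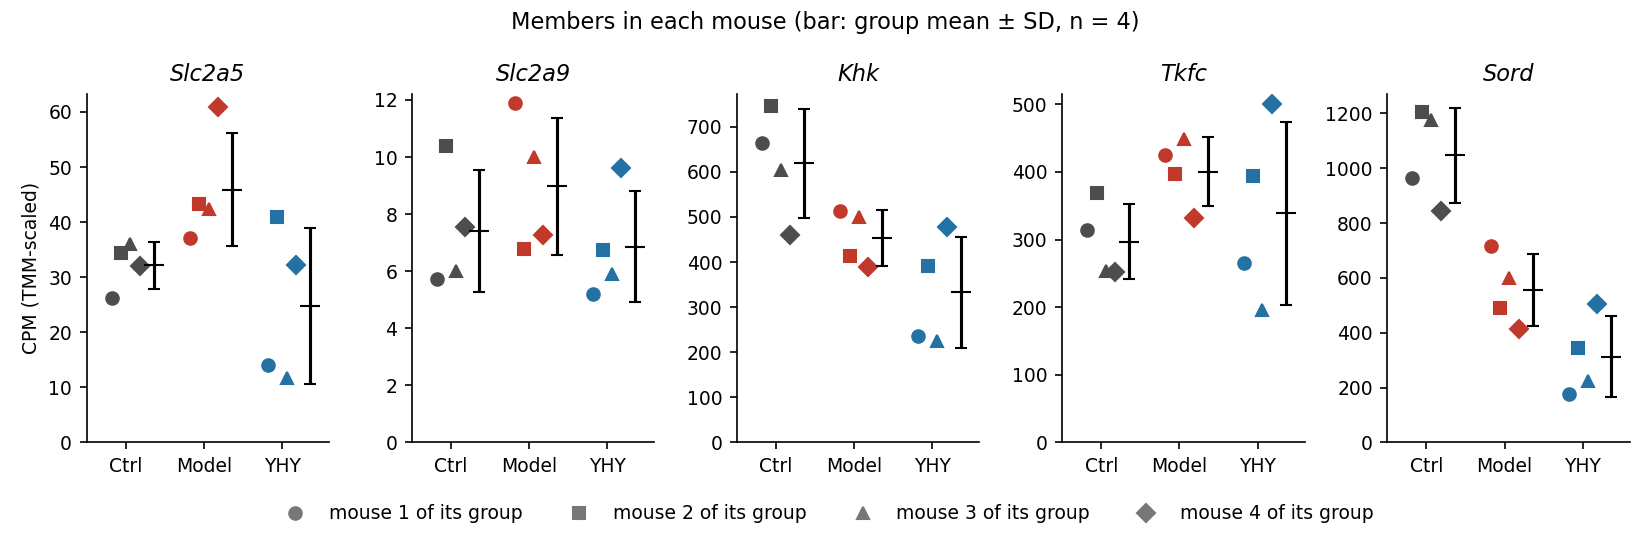
TMM-scaled CPM of each of the 5 genes in each mouse, by group; symbols mark the mouse number within its group and black bars the group mean ± SD (n = 4). Sord lies lower in all 4 Model mice than in any Ctrl mouse, and YHY 1 and YHY 3 lie below YHY 2 and YHY 4 for all 5 genes.

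The promoters of the 3 enzymes are shown because the enzymes, like both transporters, shared a pattern among the YHY mice, while only Sord was called between Ctrl and Model. All 5 genes were matched to RefSeq promoters of build GRCm38.p6, which is not the build of the deposited coordinates, and each window runs from 250 bases before to 50 bases after the start. The windows are chr2:122234589-122234888 on the plus strand for Sord, chr5:30921309-30921608 on the plus strand for Khk and chr19:10604209-10604508 on the minus strand for Tkfc. Capitals mark matches on either strand to the E-box CACGTG, to the GC box GGGCGG and to CAAAGTTCA or CAAAGTCCA, both letter strings of the HNF4A type, and no match overlapped another. The motifs were picked after the sequences had been read.
Sord: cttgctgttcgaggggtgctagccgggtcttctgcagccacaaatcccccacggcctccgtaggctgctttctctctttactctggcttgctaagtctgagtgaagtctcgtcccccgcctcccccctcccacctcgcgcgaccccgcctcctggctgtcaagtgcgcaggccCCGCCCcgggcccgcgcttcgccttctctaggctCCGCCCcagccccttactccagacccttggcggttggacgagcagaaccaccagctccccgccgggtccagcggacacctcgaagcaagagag
Khk: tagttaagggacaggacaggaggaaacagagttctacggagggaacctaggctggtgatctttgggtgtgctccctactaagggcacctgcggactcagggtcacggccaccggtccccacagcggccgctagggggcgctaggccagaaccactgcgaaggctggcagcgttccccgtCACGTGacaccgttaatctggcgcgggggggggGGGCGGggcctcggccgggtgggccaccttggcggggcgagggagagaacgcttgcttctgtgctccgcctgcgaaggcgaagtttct
Tkfc: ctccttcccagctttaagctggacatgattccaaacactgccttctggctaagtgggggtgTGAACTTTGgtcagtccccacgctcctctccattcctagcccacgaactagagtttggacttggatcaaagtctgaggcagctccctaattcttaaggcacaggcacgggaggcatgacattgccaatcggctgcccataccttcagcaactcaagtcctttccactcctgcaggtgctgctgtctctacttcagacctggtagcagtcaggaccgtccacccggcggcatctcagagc
Sord held 2 GC boxes on the opposite strand, beginning 77 and 43 bases before the start. Khk held an E-box 71 bases and a GC box 38 bases before the start, and Tkfc held CAAAGTTCA on the opposite strand, 189 bases before the start. In the promoter of Slc2a5, which is not printed, 3 GC boxes lay on the opposite strand, beginning 172, 160 and 154 bases before the start, so that 3 of the 5 genes had a GC box. Of 32851 promoters of the same length, 7.15% held the E-box, 35.7% the GC box, 0.39% CAAAGTTCA and 0.475% CAAAGTCCA. These are matches of letters, not measured sites of binding.

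Sord (ENSMUSG00000027227), sorbitol dehydrogenase, oxidises sorbitol to fructose in the second step of the polyol pathway. It is listed on chromosome 2 from 122065230 to 122095821, plus strand. Ctrl mice 1 to 4 had 963, 1204, 1176 and 843 CPM of Sord. Model mice 1 to 4 had 717, 492, 600.4 and 415 CPM, and YHY mice 1 to 4 had 178, 345, 224 and 506 CPM. Every Ctrl mouse lay above every Model and every YHY mouse, and only YHY 4 lay among the Model values. Group means of Sord were 1046.5 ± 173, 556 ± 131 and 313 ± 146 CPM (SD, n = 4) in Ctrl, Model and YHY. Sord was 1.88-fold lower in Model than in Ctrl, a log2 difference of −0.91 with a 95% interval from −1.51 to −0.32 (edgeR, adjusted P = 0.0173). In bulk tissue, fewer cells that express a gene and less RNA per cell cannot be told apart, and this holds for each gene described. YHY against Model gave −0.83, from −1.42 to −0.24, which did not pass the threshold (edgeR, adjusted P = 0.0614). Against Ctrl, Sord was 3.34-fold lower in YHY mice, a log2 difference of −1.74, from −2.34 to −1.14 (edgeR, adjusted P = 0.000118). Exact permutation of CPM gave P = 0.0286, the smallest value that 4 against 4 mice allow, for Model against Ctrl and for YHY against Ctrl. The call for Model against Ctrl was lost without Model 2 (−0.86, edgeR, adjusted P = 0.0533) and without Model 4 (−0.80, edgeR, adjusted P = 0.0599), and its adjusted P ran from 0.00101 to 0.0599 over all alternatives. For YHY against Model, DESeq2 (−0.83, adjusted P = 0.0175) and a set of 9 mice (−1.01, edgeR, adjusted P = 0.0168) gave a call, as did leaving out YHY 4 (−1.16, edgeR, adjusted P = 0.00716), whereas without YHY 1 and YHY 3 the difference was −0.39 (edgeR, adjusted P = 0.361). The 9 mice, all but Ctrl 2, Model 1 and YHY 4, were taken to be those of the authors' comparison tables, but the column names of the YHY table repeat 1 mouse, so which mice were compared there is uncertain.

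A processed copy of Sord, the pseudogene Gm18159, could share reads with it. Gm18159 had 14 to 95 counts per mouse, which was 0.0622% to 0.979% of the Sord counts, so its own counts are small beside those of Sord. How reads that match both were assigned is not given in the sources used here.

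Khk (ENSMUSG00000029162), ketohexokinase or fructokinase, phosphorylates fructose and thereby commits it to breakdown. Its deposited position is chromosome 5 from 31078775 to 31088592, plus strand. The level of Khk was 664, 747, 605 and 461 CPM in Ctrl mice 1 to 4. Model mice 1 to 4 had 514, 413, 500.3 and 388 CPM, and YHY mice 1 to 4 had 237, 391, 225 and 477 CPM. Ctrl 4 lay among the Model mice, and YHY 4 lay above Ctrl 4, so that each pair of groups overlapped. Group means of Khk were 619 ± 121, 454 ± 62.8 and 333 ± 123 CPM (SD, n = 4) in Ctrl, Model and YHY. The fitted log2 difference was −0.45 in Model against Ctrl, with a 95% interval from −0.95 to 0.05, and −0.45 in YHY against Model, from −0.95 to 0.05 (edgeR, adjusted P = 0.149 and 0.228). In YHY against Ctrl, Khk was 1.86-fold lower, a log2 difference of −0.90, from −1.40 to −0.39 (edgeR, adjusted P = 0.00525), while the exact permutation test gave P = 0.0571. That call was lost without YHY 1 and YHY 3 (−0.52, edgeR, adjusted P = 0.0714), the highest adjusted P among its alternatives, which began at 0.000103. These were the lowest YHY mice for Khk, so a smaller difference follows from leaving them out. For Model against Ctrl, Khk was called when scaled by library size alone (−0.86, edgeR, adjusted P = 0.00587), in a fit of only those 8 mice (−0.47, edgeR, adjusted P = 0.0419) and with Slc14a2 as a covariate (−0.57, edgeR, adjusted P = 0.0404), and its highest adjusted P was 0.308.

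Tkfc (ENSMUSG00000034371), triokinase and FMN cyclase, phosphorylates the glyceraldehyde formed from fructose. It is listed on chromosome 19 from 10565155 to 10583018, minus strand. Ctrl mice 1 to 4 had 314, 368, 254 and 252 CPM of Tkfc. The values were 425, 397, 448 and 331 CPM in Model mice 1 to 4, and 265, 394, 195 and 501 CPM in YHY mice 1 to 4. Model 4 lay below Ctrl 2, and the YHY mice held both the lowest and the highest level of all 12 mice. Means of Tkfc were 297 ± 55.4, 400.4 ± 50.6 and 339 ± 136 CPM (SD, n = 4) in Ctrl, Model and YHY. Unlike Khk and Sord, Tkfc had its higher mean in Model, with a log2 difference from Ctrl of 0.43 and a 95% interval from −0.09 to 0.95 (edgeR, adjusted P = 0.177). YHY against Model gave −0.24, from −0.76 to 0.27, and YHY against Ctrl gave 0.19, from −0.33 to 0.71 (edgeR, adjusted P = 0.559 and 0.544). With YHY 1 and YHY 3 left out, the difference of YHY against Ctrl was 0.58 and passed the threshold (edgeR, adjusted P = 0.0332). As these were the lowest YHY mice for Tkfc, the rise follows from the choice, and nothing is concluded from that call. Without YHY 4 the difference was −0.07, and the adjusted P ran up to 0.978 over the alternatives. When scaled by library size alone, the log2 differences of Tkfc were 0.01 for Model against Ctrl and −0.27 for YHY against Ctrl. Tkfc overlaps Ddb1 by 328 bases and Cyb561a3 by 8171 bases on the opposite strand. Ddb1 had 1454 to 5947 and Cyb561a3 284 to 669 counts per mouse, beside 5248 to 13208 of Tkfc, and since a strand setting is not given in the sources used here, reads of the shared stretches cannot be assigned to a strand.

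For Model against Ctrl, which asks what differs in the diabetic kidney, 1 of the 5 genes was called, Sord, and it was lower. Over all tested genes 38.0% were called and 18.5% were called lower, so 1 of 5 lies below the share called and near the share called lower. The TMM-scaled CPM values of Sord and Slc2a5, 2 of the 5 genes, did not overlap between the groups, compared with 40.2% of all genes. The 5 log2 differences had a median of 0.28, beside 0.04 over all tested genes, with Slc2a5, Slc2a9 and Tkfc above 0 and Khk and Sord below, although Slc2a9 turned to −0.11 when scaled by library size alone. The difference of Slc2a5 fell to as little as 0.0865 among the alternatives. In a fit without the YHY mice, 3 of the 5 genes were called (Khk, Sord and Slc2a5), beside 46.4% of the 16603 genes tested in that fit.

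For YHY against Model, which asks what the decoction alters in diabetic mice, 0 of the 5 genes were called by edgeR, while 13.3% of all tested genes were. The count over all genes, 2311, depended on single mice and was 1146 without Model 3. By unadjusted P under 0.05, 2 of the 5 passed (Sord and Slc2a5), beside 28.6% of all genes, and DESeq2 also called 2, beside 17.9%. Each of the 5 fitted log2 differences was below 0, with a median of −0.45 beside 0.02 over all genes. Tkfc turned to 0.15 without YHY 1 and YHY 3. No gene of the 5 had groups free of overlap, against 16.1% of all genes.

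For YHY against Ctrl, 2 of the 5 genes were called, Khk and Sord, both lower, beside 50.3% of all genes called in either direction and 24.2% called lower. Sord, 1 of the 5, had groups without overlap, compared with 44.6% of all genes. The count was also 2 without YHY 1 and YHY 3, but the genes were then Sord, lower, and Tkfc, higher, beside 44.0% of the 18591 genes tested in that fit. Leaving out these mice, the lowest of their group for all 5 genes, raises the YHY values by construction. The median of the 5 log2 differences was −0.38, beside 0.10 over all genes. The 3 comparisons share mice: the Model mice enter both Model against Ctrl and YHY against Model, and the Ctrl and YHY mice are shared in the same way. For Sord the estimates side by side were −0.91, −0.83 and −1.74 for Model against Ctrl, YHY against Model and YHY against Ctrl, and for Tkfc they were 0.43, −0.24 and 0.19.

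**Figure D3:**
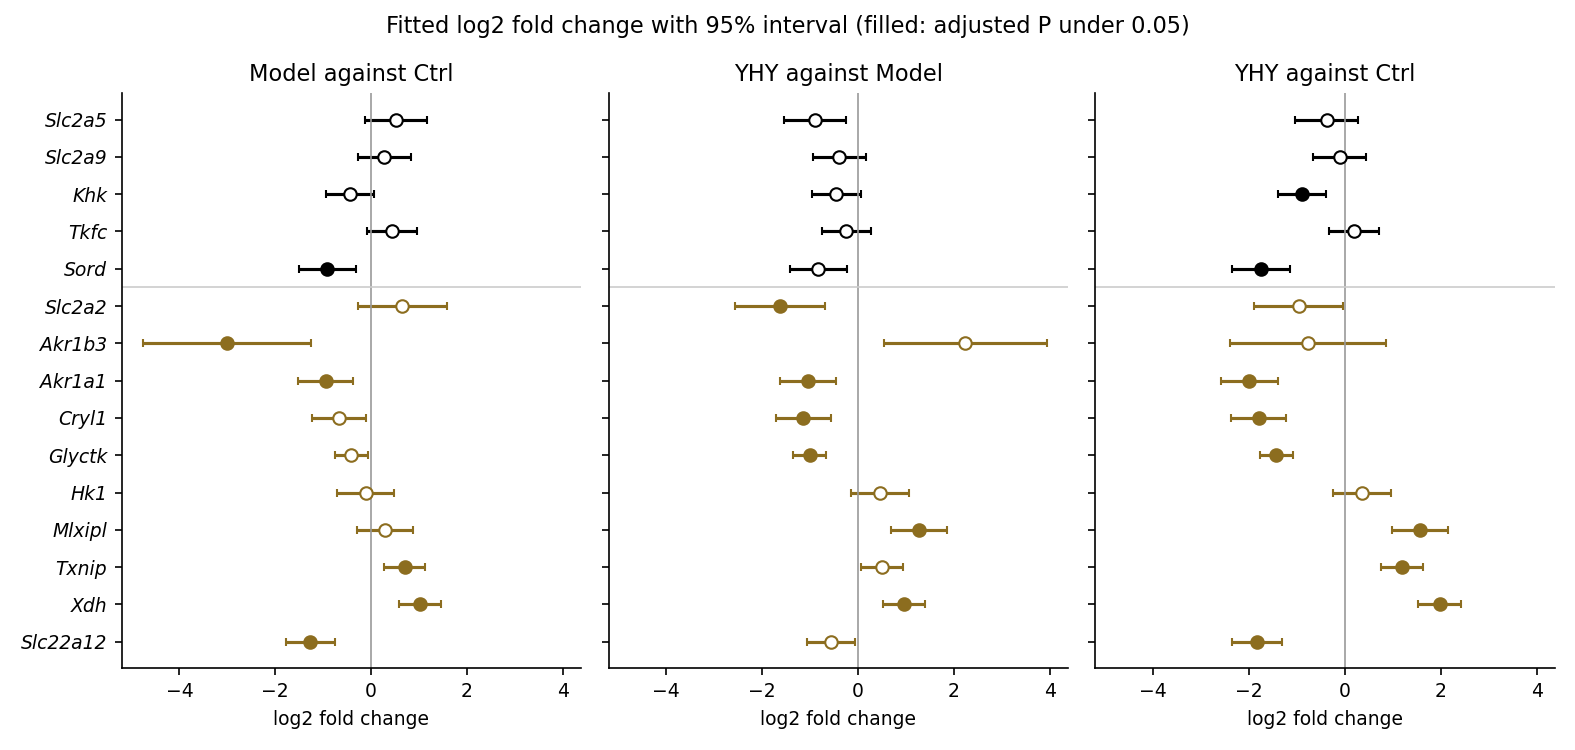
Fitted log2 fold change (horizontal axis) with its 95% interval for the 5 genes (black, above the line) and 10 genes of neighbouring steps (brown), in the 3 comparisons. Filled points have an adjusted P under 0.05. Among the 5 genes only Sord is filled in Model against Ctrl, none in YHY against Model, and Khk and Sord in YHY against Ctrl.

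A ratio of 2 genes in the same library does not depend on how the library is scaled. Ratios were therefore compared for all pairs of the 5 genes, in 10 pairs and 30 comparisons, a choice made after seeing the data. The groups did not overlap for 7 of the 10 pairs in Model against Ctrl, 3 in YHY against Model and 6 in YHY against Ctrl, beside 36.4%, 13.4% and 39.6% of all pairs of tested genes. Sord or Khk was 1 of the 2 genes in each of these 16, so they are not independent of each other. The ratios to Slc2a5 overlapped in YHY against Model, with differences of 0.15 for Sord, 0.55 for Khk and 0.74 for Tkfc on the log2 scale (exact permutation P = 0.686, 0.143 and 0.0857). Ctrl mice 1 to 4 had 3.07, 3.27, 4.63 and 3.35 Sord counts per Tkfc count. The ratio was 1.69, 1.24, 1.3402 and 1.25 in Model mice 1 to 4 and 0.673, 0.877, 1.15 and 1.01 in YHY mice 1 to 4. All 3 groups were separate, with every Ctrl mouse above every Model mouse and every Model mouse above every YHY mouse. On the log2 scale the mean ratio of Sord to Tkfc differed by −1.37 in Model against Ctrl, by −0.59 in YHY against Model and by −1.96 in YHY against Ctrl. Each difference had an exact two-sided permutation P of 0.0286, the smallest that 4 against 4 mice allow, and 0.0536 after Benjamini-Hochberg adjustment over the 30 comparisons, so none passed the threshold.

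Khk was compared with Tkfc in the same way. In Ctrl mice 1 to 4 there were 2.12, 2.03, 2.38 and 1.83 Khk counts per Tkfc count. Model mice 1 to 4 had 1.21, 1.04, 1.117 and 1.17 and YHY mice 1 to 4 had 0.895, 0.994, 1.15 and 0.954. Ctrl mice were separate from both diabetic groups, whereas Model and YHY mice overlapped through YHY 3. The mean log2 ratio differed by −0.88 in Model against Ctrl (exact permutation P = 0.0286, adjusted P = 0.0536) and by −0.19 in YHY against Model (exact permutation P = 0.0857, adjusted P = 0.135). Of the 4 other genes, 2 (Khk and Sord) had a lower ratio to Tkfc without overlap in Model against Ctrl, where 29.9% of all other tested genes had one. In YHY against Model it was 1 of 4 (Sord), with 1.76% over all genes, and in YHY against Ctrl 2 of 4 (Khk and Sord), with 13.1% over all genes. These shares depend on Tkfc as the common denominator.

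Sord was also set against Khk within each library. The count ratio of Sord to Khk spanned 1.45 to 1.94 among Ctrl, 1.07 to 1.39 among Model and 0.751 to 1.06 among YHY mice, without overlap between any pair of groups, although Model 4 (1.07) and YHY 4 (1.06) were close. After division by gene length, Sord exceeded Khk in all 4 Ctrl mice, with ratios of 1.11, 1.23, 1.49 and 1.40. In Model mice 1 to 4 that ratio per length was 1.06, 0.91, 0.917 and 0.817, and in YHY mice 1 to 4 it was 0.574, 0.674, 0.762 and 0.81. The order of the 2 enzymes per length was therefore reversed in 3 of 4 Model mice and in all 4 YHY mice. The mean log2 ratio differed by −0.49, −0.40 and −0.89 in the 3 comparisons in the order above (exact permutation P = 0.0286 and adjusted P = 0.0536 for each).

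**Figure D4:**
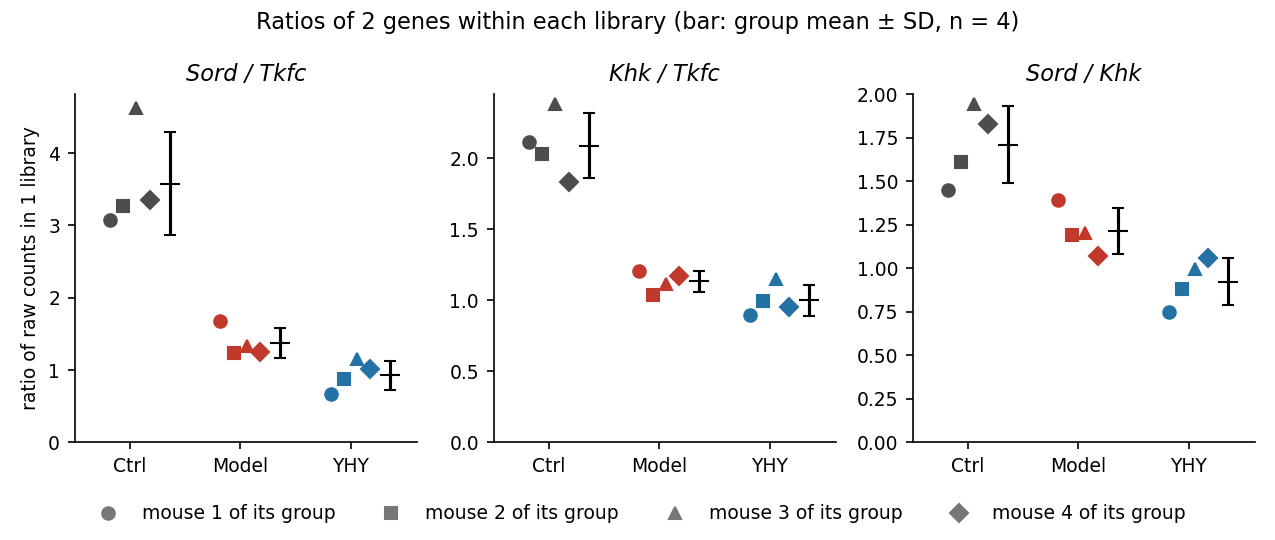
Ratio of raw counts of 2 genes in the same library for each mouse, by group, for Sord to Tkfc, Khk to Tkfc and Sord to Khk; black bars are the group mean ± SD (n = 4). The 3 groups are separate for Sord to Tkfc and for Sord to Khk, and Ctrl mice are separate from Model mice in all 3 panels.

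The 4 YHY mice varied more than the mice of the other groups for 4 of the 5 genes. The coefficient of variation of Sord was 16.5%, 23.6% and 46.7% in Ctrl, Model and YHY. For Khk it was 19.5%, 13.8% and 36.9%, and for Tkfc 18.7%, 12.6% and 40.1%. Slc2a5 had 13.2%, 22.5% and 57.0%, while Slc2a9 had 28.8%, 26.7% and 28.2%. YHY 1 and YHY 3 were lower than YHY 2 and YHY 4 for all 5 genes, Slc2a9 included. The pattern was noticed after the values were seen and is described only. How many of all tested genes divide the YHY mice in this way is not given here. The pattern is therefore not shown to be particular to the 5 genes.

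Summed markers of several cell types also divided YHY 1 and YHY 3 from YHY 2 and YHY 4. The summed level of 5 proximal tubule markers (Lrp2, Cubn, Hnf4a, Slc27a2 and Slc34a1, of which Slc27a2 was the most abundant) was 6297, 7954, 7039.9 and 5485 CPM in Ctrl mice 1 to 4. Model mice 1 to 4 had 4837, 5358, 5747 and 4683 CPM, and YHY mice 1 to 4 had 2922, 5075, 3649 and 5476 CPM. The 2 inner medulla markers Slc14a2, the more abundant, and Slc4a11 ran the other way in the YHY mice, at 107, 33.9, 185 and 58.7 CPM in YHY 1 to 4. Neither was called in any comparison. Their sum was 98.0, 19.6, 114 and 157 CPM in Ctrl mice and 66.0, 51.9, 34.4 and 58.0 CPM in Model mice. The 3 markers of the thick ascending limb (Umod, Slc12a1 and Cldn16, with Umod the most abundant in Ctrl and Slc12a1 in the other groups) summed to 1769, 968, 2058 and 2056 CPM in Ctrl mice. The same sum was 1025.5, 851, 665 and 1011 CPM in Model mice and 1247, 813, 1929 and 1118 CPM in YHY mice, and 2 of the 3, Umod and Cldn16, were called lower in Model against Ctrl. None of these markers was at 0 in all mice. The YHY mice divided in the same way by the sums for podocytes (53.0, 85.6, 53.4 and 113 CPM in YHY 1 to 4), proximal tubule injury (46.9, 21.7, 27.6 and 16.3 CPM) and endothelium (191, 94.4, 122 and 93.0 CPM). Of the 4 injury markers, Lcn2 was called higher in YHY against Model (2.06, edgeR, adjusted P = 0.0381), a call lost under 8 of 23 alternatives (1.05 to 2.35). Havcr1, also of this list, went the other way in that comparison (−1.65, edgeR, adjusted P = 0.28). It was called lower in Model against Ctrl (−4.84, edgeR, adjusted P = 8.25e-05) and in YHY against Ctrl (−6.50, edgeR, adjusted P = 8.91e-06). These differences of Havcr1 lie near the floor, with means of 3.14, 0.109 and 0.0282 CPM in Ctrl, Model and YHY. Its minimum was 0 CPM in Model and in YHY mice. The sums for stroma and smooth muscle (126, 168, 122 and 94.8 CPM in YHY 1 to 4) and leukocytes (72.2, 93.3, 86.4 and 45.1 CPM) did not divide the YHY mice in this way. Nor did the distal convoluted tubule sum, which ran from 173 to 306 CPM in Ctrl, 405 to 467 CPM in Model and 318 to 506 CPM in YHY mice. Its marker Slc12a3 was called higher in Model against Ctrl (1.33, edgeR, adjusted P = 0.000256). The other of its 2 markers, Pvalb, had means of 78.6, 94.0 and 31.2 CPM in Ctrl, Model and YHY. In YHY against Model 1 of the 2 was called lower, and in YHY against Ctrl 1 was called higher and 1 lower. With Slc14a2 as a covariate, chosen after seeing the data, Sord stayed called for Model against Ctrl (−1.01, edgeR, adjusted P = 0.00847) and YHY against Ctrl (−1.76, edgeR, adjusted P = 6.18e-05), and Khk stayed called for YHY against Ctrl (−0.91, edgeR, adjusted P = 0.00135). That fit does not measure the share of any segment, and the part of the segments in the members' values was not tested.

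Markers of the straight segment of the proximal tubule, S3, differed between Ctrl and the diabetic groups, as Sord did. The 3 markers Slc7a13, Cyp7b1 and Atp11a, of which Slc7a13 had the highest mean in Ctrl and Atp11a in the other groups, summed to 2225, 1932, 2052 and 1299 CPM in Ctrl mice 1 to 4. The sums were 369.6, 339, 459 and 508 CPM in Model mice and 359, 439, 229 and 245 CPM in YHY mice. All 3 were called lower in Model against Ctrl, by −2.33 for Slc7a13, −5.68 for Cyp7b1 and −1.54 for Atp11a (edgeR, adjusted P = 2.68e-05, 3.95e-10 and 0.000275), whereas 3 of the 5 markers of all segments were called lower and Hnf4a and Slc34a1 were not. The call of Slc27a2 (−0.53, edgeR, adjusted P = 0.0329) was lost under 8 of 23 alternatives (−0.56 to −0.42). In YHY against Model the S3 markers had no common direction. Slc7a13 was called lower (−1.11, edgeR, adjusted P = 0.0162), but not without YHY 1 and YHY 3 (−0.80) or in the set of 9 mice (−1.04). Cyp7b1 was called higher (0.62, edgeR, adjusted P = 0.0415), a call lost under 14 of 23 alternatives (0.47 to 0.67), and Atp11a was not called (−0.14, edgeR, adjusted P = 0.778). Of the 5 markers of all segments 1 was called in that comparison, the transcription factor Hnf4a (−0.94, edgeR, adjusted P = 0.009), a call lost without YHY 1 and YHY 3 (−0.61, edgeR, adjusted P = 0.0634). In YHY against Ctrl, 4 of these 5 were called lower (median −0.89), as were all 3 S3 markers (median −3.44) and Khk and Sord. Markers of the earlier segments, S1 and S2, were not called lower as Sord was. Their 3 genes (Slc5a2, Slc5a12 and Slc6a19, the most abundant) summed to 106, 212, 159 and 49.4 CPM in Ctrl, 247, 187, 209 and 111 CPM in Model and 43.9, 147, 105 and 534 CPM in YHY mice. None of the 3 was called in Model against Ctrl, where the median log2 difference was 0.52, or in YHY against Model. Slc5a12 was called higher in YHY against Ctrl (2.11, edgeR, adjusted P = 0.0363, exact permutation P = 0.457), a call lost under 9 of 23 alternatives (0.13 to 2.26). The S1 and S2 sum was lower in YHY 1 and YHY 3 than in YHY 2 and YHY 4, while the S3 sum did not divide these mice. The part of these cells in the level of Sord was not tested.

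**Figure D5:**
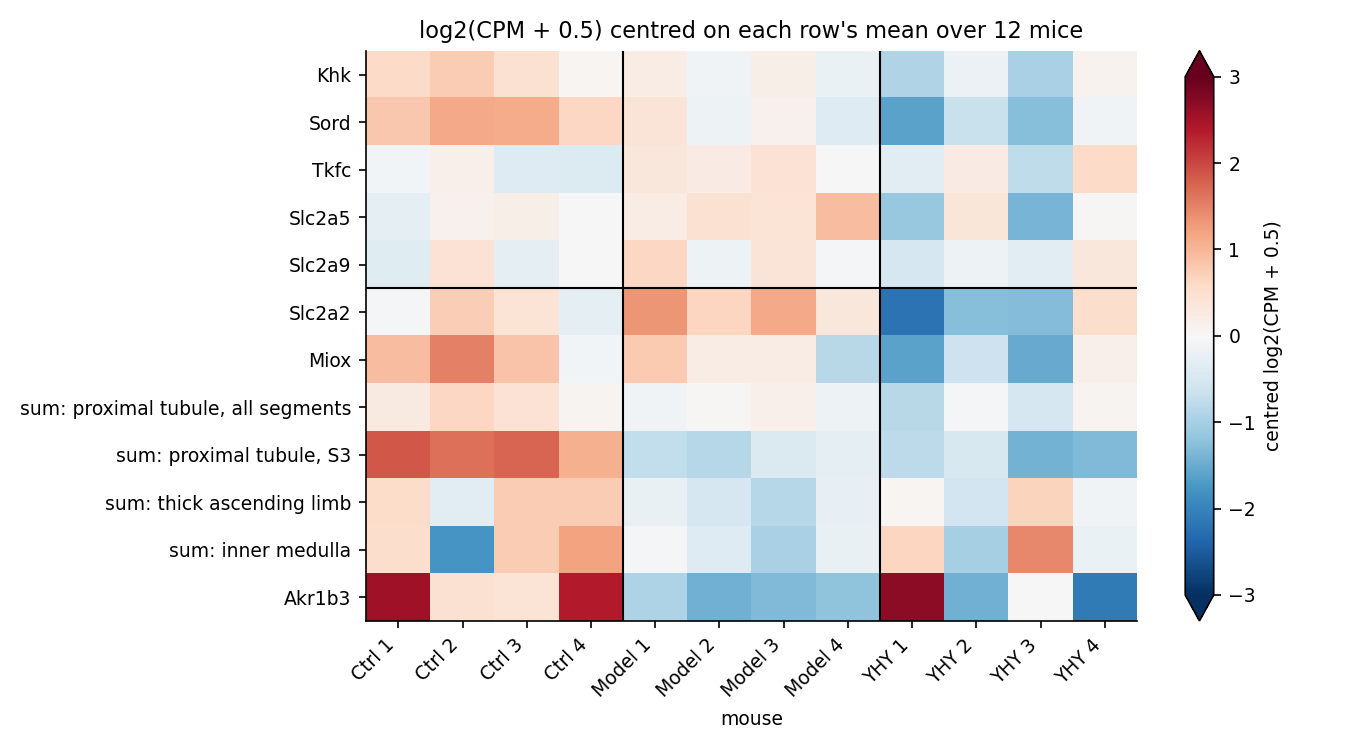
Centred log2(CPM + 0.5) of the 5 genes (above the line), of 3 other pathway genes and of summed marker levels in each mouse; each row is centred on its mean over the 12 mice, red is above and blue below it, and colours end at 3 units. YHY 1 and YHY 3 are blue in the rows of all 5 genes and of the sum for all proximal tubule segments, and the inner medulla sum is red in the same mice.

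The genes most like each of the 5 were sought among 12254 tested genes with a mean count of at least 50, by the root mean square difference of centred log2(CPM + 0.5) over the 12 mice. Sord was closest to Akr1a1 (0.14), Cryl1 (0.151) and Isoc2a (0.167), against a median of 0.888 over all genes compared. Akr1a1, an aldehyde reductase, and Cryl1, a gulonate dehydrogenase, act in the glucuronate pathway to xylulose. Khk was closest to Bdh2 (0.0954), Pipox (0.147) and Rnaseh2c (0.147), with a median of 0.606. Tkfc lay nearest to Slc25a10 (0.165), Rpl28-ps1 (0.167) and Rpl28 (0.182), with a median of 0.577. For Slc2a5 the nearest were Slc6a8 (0.25), Fndc5 (0.292) and Plekhf1 (0.294), and for Slc2a9 they were S100a1 (0.15), Guca2b (0.161) and Uqcc3 (0.163). Between members the smallest distance was that of Tkfc and Slc2a9 (0.291) and the largest that of Tkfc and Sord (0.852).

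Other genes of fructose breakdown and of the polyol pathway were examined as lists. As background to each count below, the shares of all tested genes called higher and lower were 19.6% and 18.5% for Model against Ctrl. They were 5.63% and 7.62% for YHY against Model and 26.1% and 24.2% for YHY against Ctrl. Of the 5 fructolysis genes examined, which include Khk and Tkfc, 0 were called higher and 2 lower in Model against Ctrl, with a median log2 difference of −0.45. The 2 were Akr1a1 (−0.95, edgeR, adjusted P = 0.0126) and the aldehyde dehydrogenase Aldh2 (−0.97, edgeR, adjusted P = 0.000553). In YHY against Model 2 of the 5 were called lower, Akr1a1 (−1.04, edgeR, adjusted P = 0.0211) and the glycerate kinase Glyctk (−1.01, edgeR, adjusted P = 0.00173), and in YHY against Ctrl 4 were. The call of Akr1a1 in YHY against Model was lost without Model 1, Model 3, YHY 1 or YHY 3 (−1.04 to −0.88), and without both YHY 1 and YHY 3 it was −0.62 (edgeR, adjusted P = 0.145).

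Of the 5 polyol pathway genes, 2 were called lower in Model against Ctrl, Sord and Akr1b3, and none higher. Akr1b3, aldose reductase, makes the sorbitol that Sord oxidises. Ctrl mice 1 to 4 had 388, 91.5, 89.0 and 347 CPM of Akr1b3. Model mice had 34.7, 24.01, 26.1 and 28.3 CPM, and YHY mice 1 to 4 had 430.2, 24.2, 65.7 and 14.8 CPM. All Model mice lay below all Ctrl mice, while the level varied widely within Ctrl and within YHY mice. The log2 difference was −3.01 in Model against Ctrl (edgeR, adjusted P = 0.00942) and 2.24 in YHY against Model (edgeR, adjusted P = 0.0775, exact permutation P = 0.4). The latter rested on YHY 1 and was 0.30 without that mouse (edgeR, adjusted P = 0.763) and −0.55 without YHY 1 and YHY 3 (edgeR, adjusted P = 0.537), while YHY 2 lay among the Model mice and YHY 4 below them. Under 4 of 23 alternatives Akr1b3 was called higher in YHY against Model: without a filter (2.23), in the set of 9 mice (2.77), without YHY 2 (2.59) and without YHY 4 (2.61). YHY 1 also had the highest sum of the urothelium markers Upk1b, Upk3a and Krt5, at 39.0 CPM, with at most 11.3 CPM in any other mouse. The 6 collecting duct markers, of which Aqp2 was the most abundant, summed to 904, 602, 621 and 1443 CPM in Ctrl and to 621, 271, 391 and 253 CPM in YHY mice 1 to 4, so that Ctrl 1, Ctrl 4 and YHY 1, the mice with the most Akr1b3, were also the highest of their groups here. In Model mice that sum was 617, 397, 494 and 439 CPM. Of the 6, 2 were called lower in Model against Ctrl, Aqp3 (−1.72, edgeR, adjusted P = 0.000389) and Aqp2 (−1.18, edgeR, adjusted P = 0.0354), the latter not under 8 of 23 alternatives (−1.19 to −0.82). The other 4 were not called, with Scnn1g (−0.23) and Slc4a1 (−0.13) below 0 and Atp6v1g3 (0.22) and Slc26a4 (0.24) above. The inner medulla sum did not follow Akr1b3 in this way. It was higher in Ctrl 3 (114 CPM) than in Ctrl 1 (98.0 CPM), and among YHY mice it was highest in YHY 3 (185 CPM). The part of urothelium, collecting duct or inner medulla cells in the level of Akr1b3 was not tested. Within Ctrl, mice 1 and 4 had the most Akr1b3 and the least Sord. No gene of this list was called in YHY against Model, where Sord and Akr1b3 had unadjusted P of 0.00918 and 0.0132, and DESeq2 called 1 lower.

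All 7 genes listed for the glucuronate-xylulose pathway were called lower in YHY against Ctrl, with a median log2 difference of −1.21, beside 24.2% of all genes. Akr1a1 is in this list and in that of fructolysis, so its calls are counted in both. Dcxr passed narrowly and with overlapping groups (−0.63, edgeR, adjusted P = 0.0492), and over the alternatives 5 to 7 of the 7 were called, 5 without YHY 1 and YHY 3. In YHY against Model 4 of the 7 were called lower, among them Cryl1 (−1.14, edgeR, adjusted P = 0.0126), and 3 of the 7 in Model against Ctrl. The latter were Akr1a1, Rgn (−0.88, edgeR, adjusted P = 0.0347) and Ugdh (−0.37, edgeR, adjusted P = 0.0497). The calls of Rgn and Ugdh were lost with upper-quartile scaling (−0.78 and −0.27). They were also lost on leaving out 1 mouse, for Rgn without Ctrl 1, Ctrl 3, Ctrl 4, Model 3 or Model 4 (−0.93 to −0.73) and for Ugdh without Ctrl 2, Ctrl 3, Model 2, Model 3 or YHY 1 (−0.38 to −0.32). Without YHY 1 and YHY 3, 1 of the 7 was called lower in YHY against Model, and Cryl1 was not (−0.74, edgeR, adjusted P = 0.0906).

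Among transporters, 4 of 5 fructose entry genes were tested, and Slc2a7 was not, with at most 4 counts in a mouse. Slc2a8 was called higher in Model against Ctrl (0.60, edgeR, adjusted P = 0.0209), a call lost when scaled by library size alone (0.19) and without Ctrl 1, Ctrl 4, Model 1 or Model 4 (0.47 to 0.53). Slc2a2, the basolateral transporter that passes glucose and fructose to the blood, was lower in YHY against Model (−1.62, edgeR, adjusted P = 0.0256). Its values were 14.7, 29.0, 28.6 and 102 CPM in YHY mice and 89.7 to 178 CPM in Model mice, and the call was lost without Model 1, Model 3, YHY 2 or YHY 3 (−1.54 to −1.47) and without YHY 1 and YHY 3 together (−1.03, edgeR, adjusted P = 0.131). Of 11 tested facilitative sugar transporters, which include Slc2a5 and Slc2a9, 2 were called higher and 0 lower in Model against Ctrl, and 1 higher (Slc2a6, 1.69, edgeR, adjusted P = 0.0409) and 1 lower (Slc2a2) in YHY against Model. The call of Slc2a6 was lost without any 1 of Ctrl 1, Ctrl 3, Model 1, Model 2, Model 3, YHY 1, YHY 2 or YHY 3 (1.25 to 1.78). The insulin-responsive transporter Slc2a4 was higher in Model (0.81, edgeR, adjusted P = 0.0017), but not when scaled by library size alone (0.38), where 0 of the 11 were called higher and 1 lower.

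Hexokinases compete with Khk for fructose at high concentrations. Hk1 was not called in Model against Ctrl or YHY against Model (−0.12 and 0.47, edgeR, adjusted P = 0.779 and 0.3). Of the 5 tested genes of this list, the hexokinase Hk3 was called higher in Model against Ctrl (1.77, edgeR, adjusted P = 0.00329). Adpgk, an ADP-dependent glucokinase and not a hexokinase, was called higher in YHY against Model (0.83, edgeR, adjusted P = 0.00576). No hexokinase of the list was called in YHY against Model.

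Slc2a9 belongs to a list of 10 urate transport genes, of which 1 was called higher (Slc22a8, 1.13, edgeR, adjusted P = 0.0195) and 7 lower in Model against Ctrl, with a median log2 difference of −1.11. The groups overlapped for Slc22a8, and its call was lost when scaled by library size alone (0.73) and without Ctrl 3, Ctrl 4 or Model 1 (0.83 to 1.03). Slc2a9 itself was not called. The largest falls were those of Slc22a7 (−6.46, edgeR, adjusted P = 5.55e-08), Slc17a1 (−1.88), the scaffold protein Pdzk1 (−1.87) and Slc22a12 (−1.27), the apical urate exchanger. Pdzk1 was the only gene of the list called in YHY against Model, where it was lower (−0.83, edgeR, adjusted P = 0.0135), a call lost without YHY 1 and YHY 3 (−0.52, edgeR, adjusted P = 0.0739). Of 9 tested genes of purine breakdown, 1 was called higher and 3 lower in Model against Ctrl. Xdh, xanthine dehydrogenase, which forms urate, was higher in Model than in Ctrl (1.02, edgeR, adjusted P = 0.0012) and higher in YHY than in Model (0.96, edgeR, adjusted P = 0.00743). Pnp (−1.49), Urah (−1.54) and Nt5e were lower in Model, although the call of Urah was lost without Ctrl 1, Ctrl 2, Model 2 or Model 4 (−1.54 to −1.47). Gda was higher in YHY against Model (1.33, edgeR, adjusted P = 0.024), a call lost without Model 2, Model 3, Model 4 or YHY 1 (1.16 to 1.29) and without YHY 1 and YHY 3 (1.15). Uox, urate oxidase, and Urad had 0 counts in all 12 mice.

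Organic osmolyte genes include Akr1b3. Of 10 tested, 2 were called higher and 3 lower in Model against Ctrl, among them the betaine transporter Slc6a12 (1.22, edgeR, adjusted P = 0.0113), the inositol synthase Isyna1 (1.02, edgeR, adjusted P = 0.000887) and the inositol transporter Slc5a3 (−1.03, edgeR, adjusted P = 0.0194), whose call was lost without Ctrl 4, Model 2 or Model 3 (−0.99 to −0.89). Slc6a12 and Isyna1 were not called when scaled by library size alone (0.76 and 0.56), and the counts were then 0 higher and 5 lower. Nfat5, the transcription factor that responds to tonicity, was the only 1 called in YHY against Model (0.86, edgeR, adjusted P = 0.00743), a call lost when scaled by library size alone (0.89) and without YHY 1 and YHY 3 (0.62).

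Carbohydrate response factors act upstream of Khk and Slc2a5 in liver and intestine. Mlxipl, which encodes the factor ChREBP, was higher in YHY than in Model (1.28, edgeR, adjusted P = 0.00785), with 66.3, 131, 105 and 198 CPM in YHY mice and 32.1 to 60.5 CPM in Model mice. Its partner Mlx was lower in Model than in Ctrl (−1.21, edgeR, adjusted P = 2.2e-05). Their target Txnip was higher in Model than in Ctrl (0.70, edgeR, adjusted P = 0.0144), as was Arrdc4 (0.70, edgeR, adjusted P = 0.00129), but neither when scaled by library size alone (0.29 and 0.27), and Txnip not without Ctrl 1 (0.59) or Ctrl 4 (0.47). Of the 6 tested genes of this list, 2 were called higher and 1 lower in Model against Ctrl, and Mlxipl alone was called in YHY against Model.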

How the data were processed

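Kidney mRNA of 12 mice was sequenced. Raw read counts per gene, made by the authors and deposited for all mice together, were used. Per the submitters' processing notes, FastQC 0.11.9, Trimmomatic 0.39, HISAT2 2.2.1, SAMtools 1.12, featureCounts 2.0.1 (Subread), DESeq2 1.34.0 and R 4.1.2 were used with builds GRCm39 and mm39. The authors' comparison tables hold normalized values, fold changes, P values and KEGG terms. They were not used, nor were their 12 columns of values per mouse.

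Libraries of 24415658 to 33276634 counts were filtered with filterByExpr and scaled by TMM, and 17431 genes were fitted in 1 quasi-likelihood model of 3 groups in edgeR 4.0.16 (limma 3.58.1, R 4.3.3, package data.table in version 1.17.8). P values were adjusted by Benjamini-Hochberg over all tested genes. The test was checked on simulated data. Exact two-sided permutation tests used CPM or ratios. Ratios of counts, Slc14a2 as a covariate and leaving out YHY 1 and YHY 3 were chosen after seeing the data. The other alternatives were upper-quartile scaling, library size alone, TMM without mitochondrial transcripts, DESeq2 1.42.0, no filter, at least 10 counts in every mouse, the 8 mice compared, 9 mice taken to be those of the authors' tables (without Ctrl 2, Model 1 and YHY 4), a block by mouse number, each mouse left out, and the study's rule of fold over 1.2 with unadjusted P under 0.05. Figures and promoters used matplotlib 3.10.9, pandas 2.3.3 and numpy 2.4.6 under Python 3.11.15.

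The genes and lists were chosen with earlier results of these data known. Named were all 5 genes, from each pathway list at most 4 called genes with the largest change for Model against Ctrl and 2 for YHY against Model, and Akr1b3, Slc2a2, Hk1, Mlxipl, Txnip, Xdh and Slc22a12 whatever they showed. Named as well were, for each of the 5 genes, the 3 genes most like it, with predicted genes named Gm or Rik left out. Names given beyond these, to account for a small count, were chosen after their values were seen. Some items are not reported here.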

Additional observations from a re-analysis of the deposited data

Results flagged for a closer look

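In 36 genes and 3 groups, each group of 4 mice was searched for a mouse far from the other 3. Of 108 groups, 7 had one, and chance gives about 1 in 20. None of the 7 concerned Khk, Tkfc, Sord, Slc2a5 or Slc2a9.

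YHY 4 stood above the other YHY mice for Slc2a2 (102 CPM, next 29.0), Aldh2 (322 CPM, next 223) and Arrdc4 (23.8 CPM, next 19.2). YHY 1 did so for Akr1b3 (430.2 CPM, next 65.7) and YHY 2 for Nt5e (28.97 CPM, next 21.2). In Ctrl, mouse 4 lay below the others for Glyctk (46.5 CPM, next 60.1). Model 1 lay below the other Model mice for Xdh (13.2 CPM, next 19.4).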

How the results depend on the processing

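The 15 log2 fold changes of the 5 genes were recomputed under 23 settings. Of 345 values, 315 kept their direction and their side of the threshold, 3 lost and 18 gained a call, and 9 reversed. Sord in YHY against Ctrl stayed called in all 23, from −2.21 to −1.31. Of 144 counts of calls, 126 stayed within 1.5 times. Of 1200 values of other named genes, where called, and of ratios, 1128 kept direction and side (ratios: moved by under 1 SD), 71 lost a call, and 1, the ratio of Sord to Slc2a9 in YHY against Model without YHY 1 and YHY 3, moved to −0.26. Without mitochondrial transcripts in the scaling, all 49 fold changes recomputed were alike in direction and side and the 6 counts of calls stayed within 1.5 times. The cause of the differences below was not tested.

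For Model against Ctrl, scaling by library size alone gave 2 of the 5 genes called, with Khk at −0.86 and Slc2a9 at −0.11. A fit of only the 8 mice compared gave 3, with Khk at −0.47 and Slc2a5 at 0.49. Slc14a2 as a covariate gave 2, with Khk at −0.57, and leaving out YHY 1 and YHY 3 gave 2, with Slc2a5 at 0.51. Over all genes these 4 fits called 41.4%, 46.4%, 36.8% and 38.8%. With each mouse left out in turn, 0 to 1 of the 5 genes were called. Sord ran from −1.12 to −0.80 and lost its call without Model 2 (−0.86) and without Model 4.

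For YHY against Model, library size alone gave 1 of the 5 genes (Slc2a5 −0.99) and 1177 genes in all (6.75%). DESeq2 gave 2 (Sord −0.83, Slc2a5 −0.89; 17.9% of all genes), as did no filter (Sord −0.84, Slc2a5 −0.91; 8.16%). The 8 mice compared gave 1385 genes in all, the set of 9 mice gave 1 of the 5 (Sord −1.01) and 12.2% of all genes, and a block by mouse number gave 1 (Slc2a5 −1.003) and 1920 genes in all. Mouse numbers did not pair the libraries: over 12 pairs of mice with the same number, correlations ran from −0.25 to 0.236. Without YHY 1 and YHY 3, Tkfc turned to 0.15. The study's rule gave 2 of the 5 and 4988 genes in all (28.6%). With each mouse left out, all genes called ran from 1146 to 2723 and the 5 genes from 0 to 2, Sord from −1.16 to −0.64 and Slc2a5 from −1.25 to −0.66.

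For YHY against Ctrl, upper-quartile scaling turned Slc2a9 to 0.00536, and library size alone gave Tkfc −0.27 and Slc2a5 −0.90, the latter called. Without YHY 1 and YHY 3, Khk was −0.52 and lost its call, Tkfc was 0.58 and called, and Slc2a5 (0.17) and Slc2a9 (0.14) turned. With each mouse left out, Tkfc ran from −0.0656 to 0.38, Slc2a5 from −0.73 to −0.15 and Slc2a9 from −0.32 to 0.0898.

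Slc2a9 had the fewest counts of the 5 genes, at 122 to 369 per mouse.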
